A study of Mus musculus with 12 samples.

Results

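The Krüppel-like factors examined here were 9 genes, Klf2, Klf3, Klf4, Klf6, Klf7, Klf9, Klf10, Klf11 and Klf13, of the 20778 gene symbols measured by RNA sequencing in cultured CD8 T cells of mouse spleen. They were chosen by symbol, with a higher level of Klf6 in IFNγ-treated cells already known. The level of Klf6, and every value of these 9 genes that involves the IFNγ group, is therefore given as a description without a test. Genes outside the 9 were tested in all comparisons, and the other 8 members were tested between the αCD3, LPS and untreated groups. All 9 genes passed the expression filter, which left 12122 genes for testing. The study asked how the response to IFNγ differs from the responses to αCD3 and to LPS. For this, purified cells were held in culture for 6 hours untreated (Naïve), or with an antibody to the CD3 chains of the T cell receptor (αCD3, 1 µg/ml), interferon gamma (IFNγ, 70 ng/ml) or bacterial lipopolysaccharide (LPS, 1 µg/ml). All groups came from C57BL/6 spleens, at 6 weeks of age by the labels, and each group had 3 libraries. A second label field writes the αCD3 and LPS doses in mg/ml, so the unit is uncertain, and the age is uncertain as well, being higher in the methods for the study's mice in general. No label says that replicates came from separate animals or cultures, so p-values measure the spread between these libraries, which may be technical.

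Krüppel-like factors are transcription factors that bind GC-rich and CACCC-containing DNA through zinc fingers at their carboxyl end, whereas their other domains recruit different partners. In T cells the family is best known for Klf2, which is high in resting cells, is switched on by the Foxo1 and ERK5 to MEF2 pathways, and maintains S1pr1, the receptor that lets lymphocytes leave lymph nodes. Klf4 restrains proliferation of CD8 T cells and is also a factor of monocytes. Klf3 is a repressor that recruits CtBP, and Klf9, Klf10, Klf11 and Klf13 recruit the Sin3 corepressor.

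Promoter sequences were taken from RefSeq (GRCm38.p6) and were found for 8 of the 9 genes, with none for Klf10. Each was read in a window of 300 bases around the start that RefSeq gives. The window of Klf7 lies inside the GENCODE gene, whose outermost start is further upstream. Those shown hold only the stretch before the earliest annotated start, 5′ to 3′. Klf6, Klf4 and Klf13 are shown because all 3 of their IFNγ libraries lay above the 9 other libraries on TMM-scaled CPM (Klf13 not with library size alone), and Klf2 because it was the most abundant member and the only one with a match to the MEF2 consensus. Capitals mark the GC box (GGGCGG on either strand) in Klf6, Klf4 and Klf13, and the MEF2 match in Klf2.
Klf6, chr13:5861239-5861481, plus strand: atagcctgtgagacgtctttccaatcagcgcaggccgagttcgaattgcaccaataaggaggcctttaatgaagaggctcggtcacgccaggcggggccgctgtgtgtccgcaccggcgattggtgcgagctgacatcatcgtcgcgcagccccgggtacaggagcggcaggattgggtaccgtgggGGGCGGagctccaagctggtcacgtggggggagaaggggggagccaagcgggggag
Klf4, chr4:55532476-55532725, minus strand: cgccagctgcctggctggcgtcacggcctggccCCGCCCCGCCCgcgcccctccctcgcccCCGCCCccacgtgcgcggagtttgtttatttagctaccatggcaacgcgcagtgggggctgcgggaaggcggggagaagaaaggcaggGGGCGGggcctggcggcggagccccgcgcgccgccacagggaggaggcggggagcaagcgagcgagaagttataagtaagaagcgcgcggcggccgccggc
Klf13, chr7:63938916-63939165, minus strand: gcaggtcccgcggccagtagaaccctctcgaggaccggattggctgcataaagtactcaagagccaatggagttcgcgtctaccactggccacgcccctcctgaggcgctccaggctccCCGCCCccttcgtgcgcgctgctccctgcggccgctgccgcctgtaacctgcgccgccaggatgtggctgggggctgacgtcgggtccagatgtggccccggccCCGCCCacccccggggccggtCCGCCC
Klf2, chr8:72318812-72319032, plus strand: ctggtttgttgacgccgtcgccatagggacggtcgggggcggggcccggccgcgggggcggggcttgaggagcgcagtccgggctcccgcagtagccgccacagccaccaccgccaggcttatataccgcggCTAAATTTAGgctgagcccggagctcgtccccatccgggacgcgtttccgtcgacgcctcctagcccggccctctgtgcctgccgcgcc
The Klf6 window held 1 GC box, that of Klf13 held 3 and that of Klf4 held 4. The Klf2 window also held 2 GC boxes, which are in lower case here.

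The GC box, a site bound by Sp and Krüppel-like factors themselves, was found in 7 of the 8 windows, against 35.7% of 32851 promoter windows of the same length, and Klf9 was the member without it. The windows of the members held 58.3% to 77.7% G and C, whereas the median window held 52.7%, and the part of base composition in the GC box count was not tested. The CACCC box occurred in 5 of 8 windows, against 57.5% of all. The IFNγ-linked GAS motif (TTCNNNGAA) was found in 1 member, Klf9, against 8.3% of all windows, and the core of the interferon-stimulated response element (ISRE) in 0 of 8, against 3.44%. None of the windows of Klf6, Klf4 and Klf13 held either interferon motif. Klf9 also held the only AP-1 motif (TGANTCA), which 7.81% of all windows hold. The MEF2 consensus of Klf2 occurs in 0.557% of all windows. The CRE (TGACGTCA), the CArG box and the NF-κB consensus, present in 1.79%, 1.63% and 8.46% of all windows, were found in none of the 8. All motifs were searched on both strands, and a match describes the letters only.

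Library totals ranged from 10.2 M to 27.6 M estimated counts. Markers were in part at odds with the label of CD8 T cells: Cd8a stood at 188 to 504 CPM (estimated counts relative to the TMM-adjusted size of the library), but B cell markers were detected as well, for example Ms4a1 at 373 to 602 CPM. Summed over the 10 B cell markers, all of which were detected in each library, the level was 3414 to 3720 CPM in Naïve, 2391 to 2776 in αCD3, 2734 to 2839 in IFNγ and 2052 to 3073 in LPS. The 10 T cell markers summed to 1795 to 1988, 2433 to 2650, 1845 to 2008 and 1497 to 1712 CPM in the same order, and the 13 myeloid markers to 902 to 1547, 805 to 1539, 1440 to 2425 and 1041 to 1647 CPM. The B cell markers split in LPS. Against Naïve, 5 of the 10 fell in αCD3, 3 fell and 1 rose in LPS, and 2 fell in IFNγ. Their median log2 fold changes were -0.51, -0.28 and -0.29. The replicate block called 7 of them lower in αCD3, 3 lower and 3 higher in LPS, and 3 lower in IFNγ. The myeloid markers did not move as 1 list either. Against Naïve, 5 of these fell and 1 rose in αCD3, 7 fell and 1 rose in LPS, and 2 rose in IFNγ, with median log2 fold changes of -0.75, -0.69 and -0.02. The block called 10 lower and 2 higher in αCD3, 9 and 3 in LPS, and 3 and 5 in IFNγ. The 2 that rose in IFNγ were Mpeg1, from a mean of 395 to 970 CPM, and Cybb, from 180 to 469 CPM, whereas Csf1r stood at 109 and 57.6 CPM. Replicate 1 had the lowest myeloid sum in each of the 4 groups. In such bulk samples fewer cells of a type and less RNA per cell cannot be told apart, and the part of these cell types in the values that follow was not tested.

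**Figure D1:**
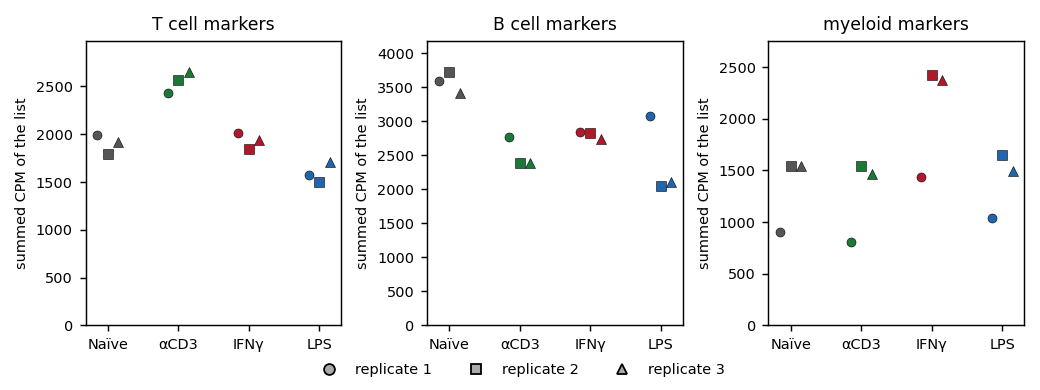
Summed CPM (vertical axes) of the 10 T cell, 10 B cell and 13 myeloid markers in each of the 12 libraries, with 1 point per library and the replicate number as the point shape. T cell markers are highest in αCD3, B cell markers in Naïve, and replicate 1 is lowest in each group for the myeloid markers.

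Levels of the genes relative to each other were compared per length, as CPM per kilobase of coding-transcript exons. In Naïve cells Klf2 was the most abundant at 404 ± 56.5 CPM per kb (SD, n = 3), followed by Klf6 at 62.7 ± 4.89, Klf13 at 46.5 ± 2.97 and Klf3 at 38.9 ± 3.23. Klf4 (7.70 ± 3.70) and Klf7 (7.34 ± 1.09) overlapped within their SDs, as did Klf11 (2.37 ± 0.661), Klf9 (2.03 ± 0.0763) and Klf10 (1.71 ± 1.18). Klf2 remained the highest in all 4 groups, at 221 ± 70.1 in αCD3, 376 ± 54.5 in IFNγ and 272 ± 51.3 CPM per kb in LPS. Klf4 was above Klf7 beyond their SDs in IFNγ, at 16.0 ± 0.945 against 6.55 ± 1.52 CPM per kb, whereas in LPS the means had the reverse order, at 4.12 ± 2.80 against 5.88 ± 1.46, and overlapped within their SDs.

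**Figure D2:**
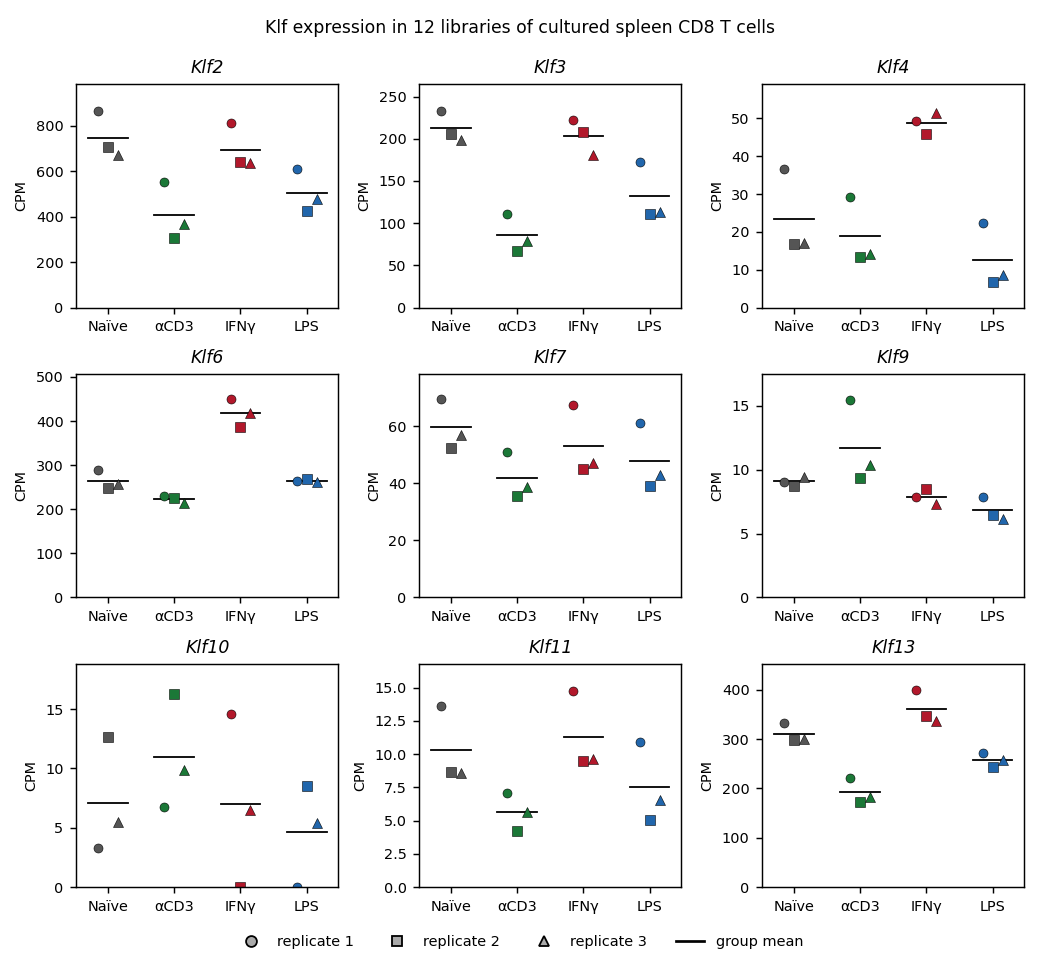
Expression (CPM, vertical axes, each from 0) of the 9 genes in the 12 libraries, with 1 point per library, the point shape as replicate number and a line at the group mean. Klf6, Klf4 and Klf13 have all 3 IFNγ libraries above the other 9 (Klf13 not with library size alone), Klf2 and Klf3 are lowest in αCD3, and Klf10 scatters without order.

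Klf6, a widely expressed member of the family that is known in macrophages as an inflammatory regulator, was highest in IFNγ by the choice of the genes. Its levels were 288, 249 and 258 CPM in Naïve replicates 1 to 3, 231, 225 and 215 CPM in αCD3, 449, 387 and 419 CPM in IFNγ, and 264, 267 and 262 CPM in LPS. The IFNγ libraries stood apart from all others, the αCD3 libraries lay below both Naïve and LPS libraries, and the LPS libraries lay within the Naïve range. IFNγ cells held 158% of the Naïve level, a log2 fold change of 0.66 (SE 0.07), and 0.90 (SE 0.07) against αCD3. Against LPS the log2 fold change was 0.66 (SE 0.07), whereas αCD3 against Naïve gave -0.24 (SE 0.07) and LPS against Naïve gave -0.00 (SE 0.07). Klf6 lies at chr13:5861482-5870394 on the plus strand (GRCm38), has a single protein-coding transcript and shares none of its 31-base stretches with another annotated gene. Its replicates lay close together, with replicate 1 at 1.14, 1.05, 1.11 and 0.997 times the mean of replicates 2 and 3 in Naïve, αCD3, IFNγ and LPS. Leaving out replicate 1 of every group, the log2 fold change of IFNγ against LPS was 0.59.

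Over the 12 libraries, the genes whose log2 CPM was most like that of Klf6 among 9448 genes were Wrn, a DNA helicase (Pearson r = 0.975), Arhgap25, a GTPase-activating protein (r = 0.971), and Gtpbp2 (r = 0.969). Their means in Naïve, αCD3, IFNγ and LPS were 54.2, 44.3, 76.7 and 50.8 CPM for Wrn, 91.6, 73.9, 131 and 93.1 CPM for Arhgap25, and 161, 141, 233 and 152 CPM for Gtpbp2. All these genes share the same 12 libraries, so the likeness is a description.

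Klf4 had the largest log2 fold change of the 9 members between IFNγ and each of the other groups. Its levels were 36.5, 16.7 and 17.2 CPM in Naïve, 29.3, 13.4 and 14.1 CPM in αCD3, 49.3, 45.7 and 51.4 CPM in IFNγ, and 22.4, 6.81 and 8.53 CPM in LPS. In 3 of the 4 groups replicate 1 was far above its partners, whereas the IFNγ libraries were alike and above all 9 others. The ratio of replicate 1 to the mean of replicates 2 and 3 was 2.15 in Naïve, 2.13 in αCD3, 2.92 in LPS and 1.02 in IFNγ. IFNγ cells held 206% of the Naïve level, a log2 fold change of 1.05 (SE 0.45), which was 1.52 without Naïve replicate 1. Against αCD3 it was 1.34 (SE 0.46), and 1.83 without αCD3 replicate 1. Against LPS it was 1.98 (SE 0.48), and 2.67 without LPS replicate 1. Each of these fits drops the highest library of the other group, which enlarges the difference. Leaving out a lower library of that group would lessen it instead, and those fits are not given here. Between libraries of the same number, Klf4 went from 36.5 CPM in Naïve to 49.3 CPM in IFNγ in replicate 1. In replicates 2 and 3 it went from 16.7 to 45.7 and from 17.2 to 51.4 CPM. The summed myeloid markers were lowest in replicate 1 of each group, where Klf4 was highest in 3 of the 4 groups, and their sum was highest in IFNγ replicates 2 and 3 (2425 and 2372 CPM). Mpeg1 and Cybb rose in IFNγ, while the median log2 fold change of the list in IFNγ was -0.02. Their part in the level of Klf4, which monocytes also express, was not tested.

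Between the groups that could be tested, Klf4 did not pass in any comparison. LPS against Naïve gave -0.93 (SE 0.48; edgeR quasi-likelihood test with Benjamini-Hochberg adjustment over all genes, adjusted p = 0.131), αCD3 against Naïve gave -0.29 (SE 0.46; edgeR adjusted p = 0.642), and αCD3 against LPS gave 0.64 (SE 0.48; edgeR adjusted p = 0.393). The replicate numbers pair the libraries in these data, and with the replicate number as a block the LPS difference was -0.95 (edgeR adjusted p = 0.0231). Without LPS replicate 1 it was -1.62 (edgeR adjusted p = 0.0152), and without Naïve replicate 1 it was -0.45 (edgeR adjusted p = 0.481). Of 14 alternative settings, 3 called it. For αCD3 against LPS 1 of the 14 settings called it, and the value ran from 0.15 without αCD3 replicate 1 to 1.33 without LPS replicate 1. For αCD3 against Naïve the sign turned when Naïve replicate 1 was left out, to 0.19 (edgeR adjusted p = 0.793). The patterns most like that of Klf4 over the 12 libraries were those of Pou6f1 (r = 0.956), Med13, a subunit of the Mediator kinase module (r = 0.952), and Pitpnc1 (r = 0.942).

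In αCD3, 3 of the 8 tested members fell, Klf2, Klf3 and Klf13. Klf3 was at 232, 206 and 199 CPM in Naïve and at 111, 66.5 and 79.3 CPM in αCD3, and it fell to 40.4% of the Naïve level, a log2 fold change of -1.31 (SE 0.21, edgeR adjusted p = 7.29e-04). Klf2 was at 865, 705 and 670 CPM in Naïve and at 553, 304 and 368 CPM in αCD3, and it fell to 54.7%, a log2 fold change of -0.87 (SE 0.22, edgeR adjusted p = 0.0101). Klf13, known in T cells as an activator of the chemokine gene Ccl5, was at 333, 297 and 300.4 CPM in Naïve and at 221, 173 and 183 CPM in αCD3, and it fell to 62.0%, a log2 fold change of -0.69 (SE 0.10, edgeR adjusted p = 4.58e-04). The αCD3 libraries lay below all Naïve libraries for each of the 3 genes, as they did for 23.8% of all genes, and each of the 3 falls passed in all 14 alternative settings.

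Of all 12122 genes, 15.7% passed as lower in αCD3, beside the 3 of 8 members. The median log2 fold change of the 8 members was -0.60, against -0.02 over all tested genes, and 6 of the 8 values were negative. For a rise, 0 members passed with edgeR, beside 22.9% of all genes. An unadjusted p under 0.05 for a rise was reached by 0 members, and DESeq2 and limma-voom also called 0. DESeq2 called 5 members lower, beside 18.1% of all genes by that tool.

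Klf11, which is induced by TGF-β, was at 13.6, 8.68 and 8.59 CPM in Naïve and at 7.09, 4.22 and 5.64 CPM in αCD3. The groups did not overlap, and the log2 fold change was -0.85 (SE 0.32, edgeR adjusted p = 0.0533). Klf7, a member known from neurons, was at 69.6, 52.6 and 57.0 CPM in Naïve and at 51.1, 35.7 and 38.7 CPM in αCD3, also without overlap, with a log2 fold change of -0.51 (SE 0.21, edgeR adjusted p = 0.0806). With the replicate block these genes passed, with edgeR adjusted p = 4.19e-04 for Klf11 and 4.20e-05 for Klf7, which brought the members called lower to 5 of 8 while 24.2% of all genes were lower. Both also passed when αCD3 replicate 1, the deepest library, was left out (edgeR adjusted p = 0.0405 and 0.0365). Reads of Klf7 are uncertain, since 61.3% of its 31-base stretches are its own and the rest are shared, mainly with the opposite-strand transcript Gm26649, and whether counting used strand is not stated.

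Klf9, a gene that glucocorticoids induce, was the only member besides Klf10 with a higher mean in αCD3 than in Naïve. It was at 9.07, 8.76 and 9.44 CPM in Naïve and at 15.4, 9.35 and 10.4 CPM in αCD3. The groups overlapped and αCD3 replicate 1 was far above the others, giving a log2 fold change of 0.38 (SE 0.18, edgeR adjusted p = 0.123), which was 0.12 without that library.

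Klf2, Klf3 and Klf13 also fell in LPS. Klf3 was at 173, 111 and 113 CPM in LPS, 62.2% of the Naïve level, a log2 fold change of -0.68 (SE 0.20, edgeR adjusted p = 0.0176). Klf2 was at 608, 424 and 476 CPM in LPS, 67.3% of Naïve, a log2 fold change of -0.57 (SE 0.22, edgeR adjusted p = 0.0491). Klf13 was at 272, 243 and 257 CPM in LPS, 83.0% of Naïve, a log2 fold change of -0.27 (SE 0.10, edgeR adjusted p = 0.0480), which was -0.48 with library size alone as the scaling, where the median of all genes was -0.22. All LPS libraries lay below all Naïve libraries for these genes, as for 27.4% of all genes. The calls of Klf2 and Klf13 were close to the threshold. Klf2 was lost when any of Naïve replicates 1 to 3 or LPS replicates 2 or 3 was left out (edgeR adjusted p from 0.0593 to 0.161), and so was Klf13 (0.0657 to 0.152). Klf3 was lost without Naïve replicate 1, LPS replicate 2 or LPS replicate 3 (edgeR adjusted p = 0.058, 0.0716 and 0.0698). Of the 14 alternative settings, 8 called Klf2, 9 called Klf13 and 11 called Klf3, so the Klf2 call was also lost in a setting not listed here. With the replicate block all 3 passed, with edgeR adjusted p = 7.27e-04 for Klf3, 4.49e-04 for Klf2 and 0.00105 for Klf13.

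All 8 members had a negative log2 fold change in LPS, with a median of -0.52 against -0.01 over all tested genes. The 3 of 8 called lower stand beside 22.3% of all genes. For a rise, 0 members passed with edgeR, beside 26.9% of all genes. An unadjusted p under 0.05 for a rise was reached by 0 members, and DESeq2 and limma-voom called 0. With the replicate block 7 of the 8 were lower, all except Klf10, beside 28.4% of all genes. Among those added by the block, Klf7 was at 61.3, 39.3 and 42.9 CPM in LPS (-0.33, edgeR adjusted p = 0.229 without and 6.43e-04 with the block). Klf11 was at 10.9, 5.04 and 6.52 CPM in LPS (-0.47, edgeR adjusted p = 0.242 without and 0.0103 with the block). Klf9 was at 7.87, 6.47 and 6.11 CPM in LPS, below all Naïve libraries (-0.42, edgeR adjusted p = 0.0863 without and 0.0469 with the block). With library size alone Klf9 also passed (-0.63, edgeR adjusted p = 0.0223). For Klf7 and Klf11 replicate 1 of LPS lay inside the Naïve range, and the other LPS libraries lay below it. Leaving out 1 library moved these values from -0.54 (without LPS replicate 1) to -0.20 (without Naïve replicate 1) for Klf7, and from -0.84 to -0.21 for Klf11 in the same fits.

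**Figure D3:**
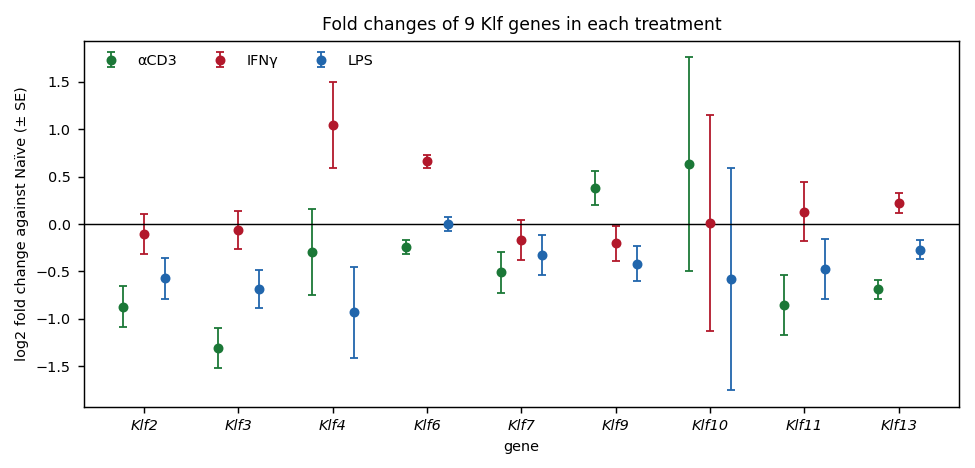
Log2 fold change against Naïve (vertical axis) of each gene in αCD3, IFNγ and LPS, with bars of 1 SE from the fit over 12 libraries. Klf2, Klf3 and Klf13 are below 0 in αCD3 and LPS, Klf6 and Klf4 are above 0 in IFNγ, and the bars of Klf10 span more than 2 log2 units.

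Directly compared, αCD3 and LPS differed in 2 of the 8 members, Klf9 and Klf13, a share near the 19.4% of all genes that differed. Klf9 was higher in αCD3, with a log2 fold change of 0.80 (SE 0.19, edgeR adjusted p = 0.0134) and αCD3 libraries all above the LPS libraries, as for 16.6% of all genes. Klf13 was lower in αCD3 at 74.7% of the LPS level, a log2 fold change of -0.42 (SE 0.10, edgeR adjusted p = 0.0162), also without overlap, as for 18.2% of all genes. Klf9 was lost without LPS replicate 2 or 3 (edgeR adjusted p = 0.0539 and 0.0578), and Klf13 without αCD3 replicate 2 or 3 (0.057 and 0.0641), and the count of members called was 1 in each of these fits. For Klf3 the difference was -0.62 (SE 0.21, edgeR adjusted p = 0.0579), without overlap, though the highest αCD3 library and the lowest LPS library both rounded to 111 CPM. For Klf2 it was -0.30 (SE 0.22, edgeR adjusted p = 0.371), and the libraries overlapped. Leaving out 1 library gave -0.86 (without αCD3 replicate 1) to -0.38 (without LPS replicate 1) for Klf3, and -0.58 (without αCD3 replicate 1) to -0.13 (without αCD3 replicate 2) for Klf2. With library size alone Klf13 was not called (-0.32, edgeR adjusted p = 0.0847). With the block 5 of 8 members differed, beside 34.7% of all genes: Klf9, Klf13, Klf3 (edgeR adjusted p = 0.00405), Klf2 (0.0235) and Klf7 (-0.19, 0.0349). The median log2 fold change of the 8 was -0.24, against -0.01 over all genes.

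Against the IFNγ group, the members other than Klf6 and Klf4 are described by their levels. Klf13 was at 400, 347 and 337 CPM in IFNγ, above all 9 other libraries on TMM-scaled CPM, at 117% of Naïve. With library size alone Naïve replicate 1 (361 CPM) exceeded IFNγ replicates 2 and 3 (335 and 327 CPM), so the groups overlapped, and the log2 fold change against Naïve was 0.08. On the TMM scale its log2 fold change was 0.22 (SE 0.10) against Naïve, 0.91 (SE 0.10) against αCD3 and 0.49 (SE 0.10) against LPS. Klf2 was at 810, 638 and 634 CPM in IFNγ and overlapped Naïve, at -0.11 (SE 0.22). Klf3 was at 222, 208 and 181 CPM in IFNγ and also overlapped Naïve, at -0.06 (SE 0.20). Both stayed above all αCD3 and LPS libraries. Their log2 fold changes against αCD3 were 0.77 for Klf2 and 1.25 for Klf3, and against LPS they were 0.47 and 0.62. Klf11 was at 14.7, 9.46 and 9.64 CPM and Klf7 at 67.5, 45.0 and 47.3 CPM in IFNγ, both overlapping Naïve. Klf9 was at 7.86, 8.49 and 7.31 CPM, below all Naïve and all αCD3 libraries.

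In all, 3 of the 9 members (Klf4, Klf6 and Klf13) had all 3 IFNγ libraries above the other 9 on TMM-scaled CPM, as did 5.3% of all tested genes, and 2 of the 9 (Klf4 and Klf6) with library size alone, as did 3.79%. Against Naïve alone 3 members lay higher and 1 lower without overlap, beside 16.1% and 15.4% of all genes. Against αCD3 it was 6 higher and 1 lower, beside 21.7% and 26.7%, and against LPS 5 higher and 0 lower, beside 23.5% and 26.3%. The rule used this group, so nothing is read from these counts. The median log2 fold change of the 9 members was 0.01 against Naïve, 0.90 against αCD3 and 0.59 against LPS, whereas the medians over all genes were -0.02, 0.03 and 0.04. These 3 comparisons share the same IFNγ libraries.

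Klf10, which TGF-β induces, ranged widely within each group. It was at 3.27, 12.7 and 5.45 CPM in Naïve, 6.77, 16.3 and 9.91 CPM in αCD3, 14.6, 0 and 6.53 CPM in IFNγ, and 0, 8.49 and 5.39 CPM in LPS. It is listed at exactly 0 in IFNγ replicate 2 and LPS replicate 1, while the libraries beside them held several CPM. The gene has 6 coding transcripts in GENCODE M21. Its log2 fold changes had SEs of 1.13 against Naïve in αCD3 and 1.17 in LPS, and it passed in no tested comparison (edgeR adjusted p from 0.512 to 0.711).

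Replicate 1 stood apart in the data as a whole, this family included. In 5 of the 9 members, Klf2, Klf3, Klf7, Klf11 and Klf13, replicate 1 was the highest library of its group in all 4 groups, as was the case for 15.8% of all genes. The ratio of replicate 1 to the mean of the other replicates was 1.26 in Naïve, 1.65 in αCD3, 1.27 in IFNγ and 1.35 in LPS for Klf2, and 1.57, 1.44, 1.54 and 1.89 for Klf11. For Klf3 it was 1.15, 1.52, 1.14 and 1.54, and for Klf7 1.27, 1.37, 1.46 and 1.49. Erythroid markers had the reverse order, with sums of 339, 407, 574 and 480 CPM in replicate 1 of Naïve, αCD3, IFNγ and LPS, against 1298 to 4120 CPM in the other 8 libraries. The sums of the NK cell, myeloid, CD4 T cell and endothelial markers were likewise lowest in replicate 1 of all 4 groups, with NK cell markers at 14.9 to 37.4 CPM there and at 44.9 to 190 CPM in the other 8 libraries. The part of these cell types in the replicate pattern was not tested. With replicates 2 and 3 alone, a choice made after this was seen, 5 of the 8 tested members differed between αCD3 and Naïve, 7 between LPS and Naïve and 5 between αCD3 and LPS, beside 48.8%, 55.1% and 29.4% of the 12193 genes tested in that fit.

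**Figure D4:**
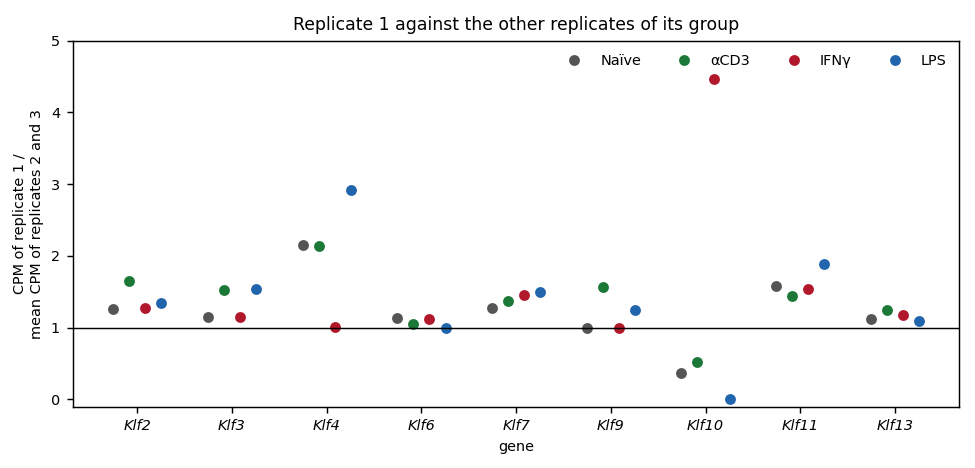
CPM of replicate 1 divided by the mean CPM of replicates 2 and 3 (vertical axis), for each gene and group, with a line at 1. Klf2, Klf3, Klf7, Klf11 and Klf13 lie above 1 in all 4 groups, Klf4 exceeds 2 in Naïve, αCD3 and LPS but not in IFNγ, and Klf10 ranges from 0 to 4.47.

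The members also varied together across libraries, as a description over 12 libraries that share groups and replicates. On log2 CPM, Pearson's r was 0.964 between Klf2 and Klf3, 0.946 between Klf3 and Klf13, 0.938 between Klf2 and Klf11, and 0.918 between Klf7 and Klf11. Klf6 was closest to Klf13 (r = 0.834) and less close to Klf2 (r = 0.581). Klf9 ran apart from the rest, with r between -0.401 (with Klf6) and 0.257 (with Klf4), and so did Klf10, with r between -0.381 and 0.106. The genes most like Klf2 were Zfp688 (r = 0.988), S1pr1, the receptor for lymphocyte egress (r = 0.984), and Pink1, a kinase of mitochondrial quality control (r = 0.983). S1pr1 averaged 458 CPM in Naïve, 172 in αCD3, 385 in IFNγ and 266 in LPS, the same order as Klf2 at 747, 408, 694 and 503 CPM.

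Of the remaining family, 17 Klf and Sp genes were in the table and 9 passed the filter (Klf1, Klf5, Klf8, Klf16, Sp1, Sp2, Sp3, Sp4 and Sp6). Klf16 moved opposite to Klf2, Klf3 and Klf13. It was at 51.4, 43.8 and 47.2 CPM in Naïve, 67.5, 73.6 and 68.1 CPM in αCD3, 48.2, 41.6 and 40.4 CPM in IFNγ, and 71.3, 69.3 and 67.0 CPM in LPS. The αCD3 and LPS libraries lay above all Naïve and IFNγ libraries, and Klf16 rose by 0.55 (SE 0.08, edgeR adjusted p = 4.70e-04) in αCD3 and by 0.54 (SE 0.08, edgeR adjusted p = 3.70e-04) in LPS. Klf8, at 4.78, 3.83 and 4.24 CPM in Naïve and 2.86, 2.10 and 1.93 CPM in LPS, fell by 0.91 in LPS on the log2 scale (SE 0.21, edgeR adjusted p = 0.00417). It was higher in IFNγ than in LPS by 1.35 (SE 0.21, edgeR adjusted p = 4.02e-04). Sp3 fell by 0.36 in LPS (edgeR adjusted p = 0.0439), and Sp4 rose by 0.38 in IFNγ (edgeR adjusted p = 0.0493), a call that was lost with library size alone as the scaling (0.24, edgeR adjusted p = 0.196). Against Naïve, the replicate block added Sp3 in αCD3 (-0.25, edgeR adjusted p = 0.00747), Sp1 in LPS (0.14, edgeR adjusted p = 0.0195) and Sp6 in IFNγ (-0.89, edgeR adjusted p = 0.0449). Between treatments it added Sp2 (-0.21, edgeR adjusted p = 0.0101) and Sp6 (-0.83, edgeR adjusted p = 0.0386) in αCD3 against LPS, Sp2 (0.19, edgeR adjusted p = 0.0103) and Sp3 (0.27, edgeR adjusted p = 0.00506) in IFNγ against αCD3, and Sp1 (-0.17, edgeR adjusted p = 0.00681) in IFNγ against LPS. Sp1 and Sp2 passed in no comparison without the block. Klf1, the erythroid factor, and Klf5, each under 1 CPM in every group mean, did not pass in the 6 comparisons with or without it.

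Among 8 homing and survival genes linked to Klf2, all tested, αCD3 lowered 4 and raised 1, LPS lowered 4 and raised 2, and 2 rose in IFNγ. Il7r, the IL-7 receptor chain of resting T cells, had the largest fall in αCD3, by 2.12 (SE 0.26, edgeR adjusted p = 1.57e-04), from 331, 265 and 249 CPM in Naïve to 89.5, 50.1 and 53.6 CPM. S1pr1 fell by 1.41 in αCD3 (SE 0.28, edgeR adjusted p = 0.00319) and by 0.78 in LPS (SE 0.28, edgeR adjusted p = 0.0391), a gene chosen here after its values were seen. The largest fall in LPS was that of S1pr4, by 1.06 (SE 0.21, edgeR adjusted p = 0.00202). Ccr7, the receptor for entry to lymph nodes, rose in all 3 treatments, by 0.22 in αCD3 (edgeR adjusted p = 0.0263), 0.26 in IFNγ (edgeR adjusted p = 0.0322) and 0.72 in LPS (edgeR adjusted p = 1.87e-05). With library size alone Ccr7 passed in LPS but not in αCD3 (0.11, edgeR adjusted p = 0.206) or IFNγ (0.12, edgeR adjusted p = 0.223). The median log2 fold change of the list was -0.58 in αCD3, -0.56 in LPS and 0.16 in IFNγ.

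**Figure D5:**
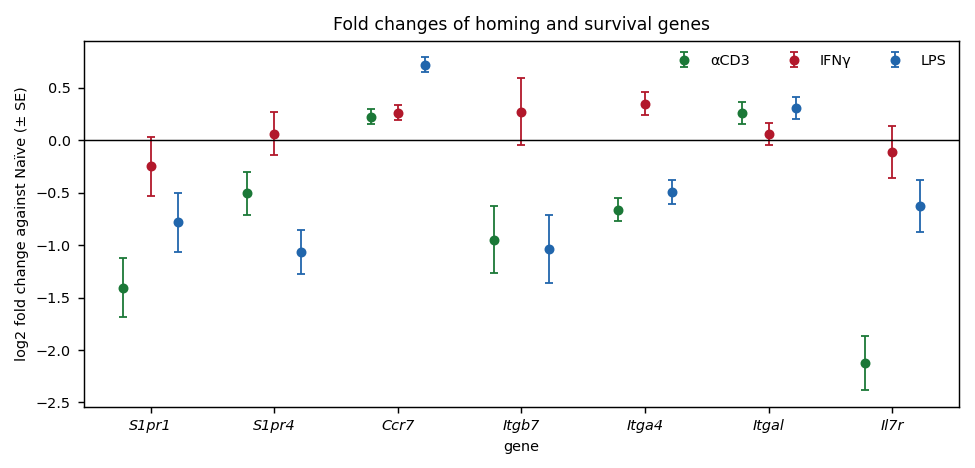
Log2 fold change against Naïve (vertical axis) of 7 homing and survival genes in αCD3, IFNγ and LPS, with bars of 1 SE. S1pr1, Itgb7 and Itga4 are below 0 in αCD3 and LPS, Il7r reaches -2.12 in αCD3, and Ccr7 is above 0 in each treatment.

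Of 12 upstream regulators of Klf2 and Klf4, 2 fell in αCD3, with the largest fall for Map3k3, a kinase at the top of the ERK5 pathway (-0.72, SE 0.19, edgeR adjusted p = 0.0141). The blocked fit called 6 lower. LPS lowered 6 and raised 1, with the largest fall for Mef2c (-1.36, SE 0.29, edgeR adjusted p = 0.00284) and the rise for Fbxw7 (0.28, edgeR adjusted p = 0.0240), a ubiquitin ligase subunit known to mark Klf2 for degradation. IFNγ raised 1, Mef2a (0.17, edgeR adjusted p = 0.0469), with 3 lower in the blocked fit. With library size alone Fbxw7 in LPS (0.07, edgeR adjusted p = 0.527) and Mef2a in IFNγ (0.03, edgeR adjusted p = 0.697) did not pass. The shares of all genes that passed were 22.9% higher and 15.7% lower in αCD3, 26.9% and 22.3% in LPS, and 8.17% and 4.27% in IFNγ. The blocked shares were 28.1% and 24.2%, 31% and 28.4%, and 13.5% and 11.4%.

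Quiescence factors (10 genes) and cell cycle inhibitors (7 genes) are the groups with which Klf2 and Klf4 are linked in resting T cells. In αCD3 2 quiescence factors fell and 1 rose, with Lef1 lowest (-0.88, SE 0.21, edgeR adjusted p = 0.00762) and Bach2 higher (0.39, edgeR adjusted p = 0.0493). In LPS 2 fell, with Tcf7 lowest (-0.43, edgeR adjusted p = 0.0429), and Slfn2 rose (0.43, edgeR adjusted p = 0.0221). Slfn2 was also the only one that rose in IFNγ (0.53, edgeR adjusted p = 0.0277). With the block 5, 7 and 4 of the 10 passed in αCD3, LPS and IFNγ. With library size alone Bach2 in αCD3 (0.28, edgeR adjusted p = 0.17) and Slfn2 in LPS (0.22, edgeR adjusted p = 0.138) did not pass. Among the inhibitors, Cdkn1b, which encodes p27, fell by 0.90 in αCD3 (SE 0.19, edgeR adjusted p = 0.00372, chosen after its values were seen) and Cdkn2d by 1.08 (SE 0.27, edgeR adjusted p = 0.00925). In LPS Cdkn2c fell by 0.63 (edgeR adjusted p = 0.0243), Cdkn1b also fell, and Cdkn2b rose by 0.81 (edgeR adjusted p = 0.00971). With the block 2 inhibitors were lower and 1 higher in αCD3, 2 lower and 2 higher in LPS, and 1 higher in IFNγ. Cdkn1a was called higher only with the block, by 0.50 in LPS (edgeR adjusted p = 8.57e-05) and 0.24 in IFNγ (edgeR adjusted p = 0.0219).

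Some of the partners through which Krüppel-like factors act were called, in both directions, as were genes at large. The shares of all genes called higher and lower were 22.9% and 15.7% in αCD3, 26.9% and 22.3% in LPS, and 8.17% and 4.27% in IFNγ. The counts of the lists in this paragraph stand beside these shares. Of 13 corepressors and coactivators, 3 rose and 3 fell in αCD3, with Sap30, a Sin3 complex subunit, highest (0.81, SE 0.13, edgeR adjusted p = 7.05e-04) and Crebbp, a coactivator acetyltransferase, lowest (-0.45, SE 0.09, edgeR adjusted p = 0.00349). In LPS 2 rose and 2 fell, led by Hdac2 (0.82, SE 0.09, edgeR adjusted p = 3.78e-05) and Ep300 (-0.42, SE 0.11, edgeR adjusted p = 0.00780). IFNγ raised Kat2b alone (0.85, SE 0.08, edgeR adjusted p = 3.21e-04), with 3 of 13 called in the blocked fit. Of 12 tested TGF-β signalling genes, 4 fell in αCD3, with Smurf1 lowest (-0.63, SE 0.13, edgeR adjusted p = 0.00309), while 7 fell in the blocked fit. LPS lowered 4, with Tgfb3 lowest (-1.71, SE 0.31, edgeR adjusted p = 0.00109), and raised 2, and IFNγ raised 2, with Tgfb3 highest (1.67, SE 0.27, edgeR adjusted p = 0.00277), and lowered 2. With the block 10 of the 12 were called in LPS. Tgfb3 thus moved in opposite directions in LPS and IFNγ, with a direct difference of 3.38 (SE 0.31, edgeR adjusted p = 1.21e-05). Of 14 immediate early and tissue handling genes, 2 rose and 3 fell in αCD3, 4 rose and 2 fell in LPS, and 1 rose and 1 fell in IFNγ (2 and 2 with the block), with Jun highest in LPS (1.98, SE 0.27, edgeR adjusted p = 2.17e-04) and in IFNγ (2.25, SE 0.27, edgeR adjusted p = 8.43e-04).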

How the data were processed

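RNA of 12 cultured splenic CD8 T cell libraries was sequenced after an mRNA library protocol. The authors pseudo-aligned reads to mm10 with Kallisto and deposited estimated counts per gene symbol, not scaled for depth, with 1 column per library. The Kallisto version and transcript annotation are not given in the sources used here. Counts were rounded. Libraries were grouped by their labels.

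All 12 libraries entered a fit with group as the only term (edgeR 4.0.16 in R 4.3.3, quasi-likelihood F-test with robust estimation, TMM factors, filterByExpr). The study's methods name TMM and DESeq2. Adjustment was by Benjamini-Hochberg across the 12122 genes tested, and genes under an adjusted p of 0.05 are called, or said to rise or fall. Levels are CPM on TMM-scaled library sizes, and SEs come from the fit. The scripts were tested on simulated data. Alternatives were DESeq2 1.42.0, limma-voom (limma 3.58.1), other scalings, no filter, a replicate block, only the compared libraries, leaving out each library, and, added after seeing the data, replicates 2 and 3 alone.

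Same-numbered libraries deviated together from their group means on log2 (CPM + 0.5): r was 0.171 to 0.488 in all 18 pairs with the same number, and -0.416 to 0.135 in 36 pairs with different numbers. The labels give the numbers but not what they mark.

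The 9 genes and the gene lists were chosen with earlier results of these data known. All 9 are named, with tested family genes, the largest called rise and fall of each list in each comparison, and the 3 genes most correlated with Klf6, Klf2 and Klf4 among those with a mean of at least 5 CPM. Not every gene that this rule allows is named, and 1 homing gene and 1 B cell marker, counted in their lists, are not reported here. Annotation came from GENCODE M21 (GRCm38), and promoters from RefSeq.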

Additional observations from a re-analysis of the deposited data

How the results depend on the processing

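The number of tested members called (3 between αCD3 and Naïve, 3 between LPS and Naïve, 2 between αCD3 and LPS) moved with the setting. It was 5, 7 and 5 with the replicate block, which follows the pairing of the numbers, and 5, 7 and 5 with replicates 2 and 3 alone, a fit that called 48.8%, 55.1% and 29.4% of all genes. DESeq2 called 5 between αCD3 and Naïve. Between αCD3 and LPS the count was 1 with library size alone and 0 with only the 6 libraries compared. Leaving out each library in turn gave 3 to 5 between αCD3 and Naïve (5 without αCD3 replicate 1), 0 to 5 between LPS and Naïve (0 without Naïve replicate 1, LPS replicate 2 or LPS replicate 3, 1 without Naïve replicate 2 or 3, and 5 without LPS replicate 1), and 1 to 3 between αCD3 and LPS. The median log2 fold change of the members, 0.01 for IFNγ against Naïve, ranged from -0.14 to 0.24, being highest without IFNγ replicate 2. Signs of uncalled members turned in 3 of these fits: Klf4 in αCD3 against Naïve ran from -0.78 to 0.19 (without Naïve replicate 1), Klf10 in LPS against Naïve from -1.32 to 0.12 (without Naïve replicate 2), and Klf7 in αCD3 against LPS from -0.36 to 0.032 (without LPS replicate 1). The cause was not tested.

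Over the linked gene lists, the replicate block raised the count called from 23 to 38 (αCD3 against Naïve), 14 to 36 (αCD3 against LPS), 10 to 23 (IFNγ against Naïve), 26 to 42 (IFNγ against αCD3) and 32 to 49 (IFNγ against LPS). The block raised the calls over all genes too, from 19.4% to 34.7% in αCD3 against LPS. The shares of all genes called in IFNγ against αCD3 and against LPS are not given here, so these rises are not read as particular to the lists. Scaling by library size alone moved the count called by over 1.5 times for upstream regulators in αCD3 against Naïve (2 to 5) and IFNγ against αCD3 (2 to 1), quiescence factors in LPS (3 to 6), cofactors in LPS (4 to 8) and αCD3 against LPS (1 to 2), and in IFNγ against Naïve for other Klf and Sp genes (1 to 0), upstream regulators (1 to 0), homing genes (2 to 1), quiescence factors (1 to 2) and cofactors (1 to 5). DESeq2 called 2 quiescence factors and 3 cofactors in IFNγ against Naïve. Beyond the values given here and in the report, the block changed no other call of the 8 members tested between αCD3, LPS and Naïve. Scaling by library size alone moved the median log2 fold change of all genes from -0.02 to -0.13 in αCD3, -0.01 to -0.22 in LPS and -0.02 to -0.16 in IFNγ, each against Naïve, from -0.01 to 0.09 in αCD3 against LPS and from 0.04 to 0.11 in IFNγ against LPS. Under it Klf13 was 0.08 in IFNγ against Naïve and Klf6 was 0.52. With 3 libraries a group, members below about 15 CPM (Klf9, Klf10, Klf11) rest on the fewest counts. Klf4 was also below that level in LPS replicates 2 and 3 (6.81 and 8.53 CPM) and αCD3 replicates 2 and 3 (13.4 and 14.1 CPM).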
